A study of Mus musculus with 24 samples.

Results

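Untreated MIN6 cells that overexpress miR-146a-5p (OE) were set against untreated MIN6 cells in which the same microRNA is inhibited (ZIP), with 4 RNA-seq libraries for each line. These 8 of the 24 libraries in the series are defined by their labels. The scrambled control line and the cytokine-treated libraries entered the fit only through its shared estimate of the spread, so every difference below is one between OE and ZIP. MIN6 is a mouse insulinoma line widely used as a model of the pancreatic β cell. The OE line carries a lentiviral vector for a miR-146a-5p mimic with the red reporter TurboRFP. The ZIP line carries a lentiviral miRZip-146a hairpin, which expresses an antisense RNA against the microRNA together with the green reporter copGFP. Each line was grown from 1 clone after puromycin selection and received no cytokine. Vector, reporter, clone and level of the microRNA therefore differ together between the lines and cannot be told apart. The same lines after 24 h with the cytokines IFNγ at 100 ng/ml, TNFα at 10 ng/ml and IL-1β at 5 ng/ml (OE+Cy and ZIP+Cy, 4 libraries each) served as a second view of each gene.

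A microRNA guides an Argonaute protein to messages that pair with its seed, usually in the 3′ UTR, and such messages are then destabilized or translated less. miR-146a is induced by NF-κB and is best known for restraining signals from Toll-like and interleukin-1 receptors through the adaptors Irak1 and Traf6. In β cells it rises with inflammatory cytokines. The libraries were made from messenger RNA, so the microRNA itself was not measured and its level in either line could not be checked here. By qRT-PCR of untreated cells, the study reported more of it in OE than in the scrambled control line. For ZIP the study reported a level unchanged from that control.

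The mature sequence and a choice of its sites are shown because the known targets and several genes the study followed are named for them. In the microRNA (RefSeq, GRCm38.p6, chr11:43374435-43374456, minus strand) the capitals mark the seed, bases 2 to 8. In the sites (GRCm38 genome with the GENCODE annotation, each given as the messenger strand of 30 bases) the capitals mark the match, which is AGTTCTCA for a site of 8 bases and AGTTCTC or GTTCTCA for one of 7.
miR-146a-5p: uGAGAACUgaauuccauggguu
Irak1, chrX:74015382-74015411, minus strand: tcagaggtcaaAGTTCTCAtgcttggaagt
Irak1, chrX:74015366-74015395, minus strand: tcatgcttggaAGTTCTCAtagtgtgcaaa
Traf6, chr2:101698012-101698041, plus strand: tggaaggcttaAGTTCTCAagtactccctc
Card10, chr15:78775572-78775601, minus strand: ccctggaatagAGTTCTCAcaccgttcaat
Numb, chr12:83794802-83794831, minus strand: atattttaaatAGTTCTCAatattaaaaag
Brsk2, chr7:142001688-142001717, plus strand: tcctgggcctcAGTTCTCAgaagcagccct
Sort1, chr3:108360971-108361000, plus strand: attcctagtgcAGTTCTCAttctccgcatg
Mapt, chr11:104329108-104329137, plus strand: ctgctttactgAGTTCTCAagtttggaact
Myrip, chr9:120474110-120474139, plus strand: cttcacttccaAGTTCTCtggttctcctat

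The OE libraries held between 29879853 and 37168232 assigned reads and the ZIP libraries between 28032255 and 33369451. Levels are CPM, the counts scaled to a common library size. Averaged over the 4 libraries of a group, 3 reads come to 0.0883 CPM in OE and 0.103 CPM in ZIP. Pearson correlations of log2 levels were between 0.987 and 0.996 within OE, between 0.974 and 0.994 within ZIP, and between 0.876 and 0.898 across the lines. Both lines expressed the β cell marker list, with all 12 genes detected and a summed level of 50570 to 54307 CPM in OE and 37473 to 40448 CPM in ZIP. In bulk RNA, fewer cells with a transcript and less of it in each cell cannot be told apart. Markers of other pancreatic cells were also read. Of 15 acinar genes, 2 were listed in the count table at all. The 8 duct markers summed to 483 to 597 CPM in OE and 3.70 to 6.92 CPM in ZIP, mostly through the keratin Krt7 and the secreted phosphoprotein Spp1, while the duct factor Sox9 had no read in any of the 8 libraries.

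A pair of ZIP libraries stood apart and bear on some of the results. ZIP replicate 1 carried connective tissue RNA: the collagen gene Col1a1 was at 1.09, 0.218, 0.0552 and 0.229 CPM in OE replicates 1 to 4 and at 12.6, 2.41, 0.0620 and 0.0672 CPM in ZIP replicates 1 to 4. The 7 listed fibroblast and stellate markers summed to between 0.773 and 4.11 CPM in OE and between 3.35 and 54.8 CPM in ZIP, with the highest sum in ZIP replicate 1. ZIP replicate 4 carried interferon-response RNA, as the guanylate-binding protein gene Gbp2 shows at 0.0366, 2.55, 4.06 and 37.6 CPM in ZIP replicates 1 to 4. Both libraries were kept. Where leaving out 1 library, of either line, moves the count of a list by over 1.5 times, the count without it stands beside the count over all 8.

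**Figure D1:**
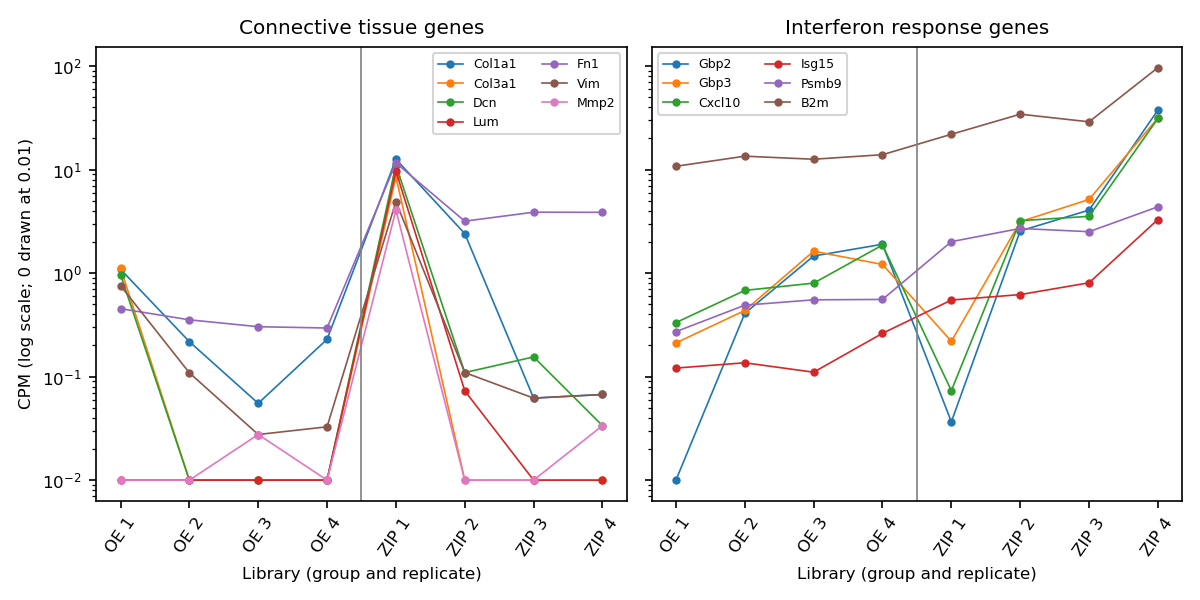
Levels in CPM on a log axis for 7 connective tissue genes (left) and 6 interferon response genes (right) in each of the 8 libraries, with 1 line per gene and a level of 0 drawn at 0.01. The connective tissue genes peak in ZIP replicate 1 and the interferon response genes in ZIP replicate 4.

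Of 17696 genes tested with edgeR's quasi-likelihood test, 4515 (25.5%) differed between OE and ZIP by at least 1.5-fold at a Benjamini-Hochberg adjusted p under 0.05, which is what "called" means below. More of them were lower in OE: 2657 (15%) against 1858 (10.5%) higher. Counts of gene lists below are to be read beside these shares. In 4087 of the called genes, or 90.5%, the 4 libraries of OE did not overlap those of ZIP, beside 48.1% of all genes tested. Many differences were of on-or-off size, with 490 genes at least 8-fold higher and 539 at least 8-fold lower, while 354 of the called rises had at most 3 reads in every ZIP library and 367 of the called falls at most 3 in every OE library. Without ZIP replicates 1 and 4, 4192 genes were called, of which 3920 were among the 4515 with the same sign. Because each line is 1 clone, these p-values measure the spread between libraries of a clone, not between independently made lines, and that spread may be partly technical, since the labels do not say whether libraries came from separate cultures.

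Of 9 known targets of miR-146a, 1 was called, and it was higher in OE, with a list median of −0.01 on the log2 scale beside −0.00021 for all genes tested. Irak1, the kinase downstream of interleukin-1 and Toll-like receptors, was at 248, 252, 243 and 241 CPM in OE and 205, 208, 186 and 215 CPM in ZIP. All 4 OE libraries lay above all 4 ZIP libraries, and the log2 fold change was 0.27 ± 0.06 (SE, adjusted p = 7.16e-04 by edgeR), which is under the fold limit. Traf6, the ubiquitin ligase next in that pathway, was at 61.3, 58.7, 61.7 and 57.9 CPM in OE and 72.3, 77.4, 83.6 and 69.6 CPM in ZIP. Here OE lay below ZIP without overlap (log2 fold change −0.34 ± 0.05, adjusted p = 1.21e-05 by edgeR), again under the fold limit. Its transcript has 4 sites of 8 bases in the 3′ UTR, and that of Irak1 has 2 such sites and 1 of 7 bases. Card10, which links receptors to NF-κB, was the one called member, at 5.26, 4.62, 4.03 and 3.21 CPM in OE and 0.476, 0.474, 0.434 and 0.739 CPM in ZIP, an 8.02-fold rise (adjusted p = 4.65e-12 by edgeR) in a message with 1 site of 8 bases. Irak2, a second interleukin-1 receptor kinase, lay at 2.86 ± 0.645 CPM in OE and 4.21 ± 0.273 CPM in ZIP (SD, n = 4), just under the fold limit at 1.47-fold lower, and past it without OE replicate 1 or ZIP replicate 3 (log2 fold changes −0.72 and −0.60), when 1 known target was called lower. Numb, an inhibitor of Notch, was at 25.8 ± 1.68 and 17.8 ± 1.06 CPM, 1.45-fold higher and so not called. Smad4, the common mediator of TGF-β signals, was at 116 ± 3.39 and 117 ± 4.72 CPM, and the NF-κB subunit Relb at 4.57 ± 0.624 and 4.58 ± 0.331 CPM, so that both lines overlapped in each. Cxcr4, a chemokine receptor, was under 1 CPM in every library of both lines.

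All 10 genes that the study followed by other assays were called here, 4 higher and 6 lower in OE. That list was picked by the study with these libraries in view, so its count is a description. By qRT-PCR over the control and both lines, with and without cytokines, the study reported differential expression of all but Glrx, Rest and Sort1. Myrip, which tethers secretory granules to the actin network, was at 0.0907, 0.136, 0 and 0 CPM in OE and 11.7, 13.1, 13.4 and 12.9 CPM in ZIP. It was almost silent in OE and steady in ZIP, a log2 fold change of −7.68 ± 0.37 (adjusted p = 1.75e-14 by edgeR). Nrg1, a growth factor of the neuregulin family, was at 0.332, 0.245, 0.166 and 0.327 CPM in OE and 4.61, 3.57, 3.35 and 4.13 CPM in ZIP, 14.6-fold lower without overlap. Sort1, the sorting receptor sortilin, was at 187, 185, 197 and 172 CPM in OE and 399, 369, 378 and 339 CPM in ZIP, 2.00-fold lower with narrow spreads in both. Mapt, which encodes the microtubule protein tau, was at 89.7, 115, 146 and 143 CPM in OE and 311, 255, 339.9 and 244 CPM in ZIP. The OE libraries were more uneven than for Sort1 but stayed below ZIP (log2 fold change −1.22 ± 0.15, adjusted p = 2.91e-07 by edgeR). Glrx, the thiol reductase glutaredoxin, fell 2.45-fold, from 126 ± 10.2 CPM in ZIP to 51.4 ± 6.49 CPM in OE (SD, n = 4). Gpx1, the main cytosolic glutathione peroxidase, fell 2.41-fold, from 117 ± 10.4 to 48.6 ± 1.96 CPM.

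Among the 4 that were higher in OE, Eya1, a transcriptional coactivator of organ development, changed most. Its levels were 42.0, 53.0, 54.6 and 51.2 CPM in OE and 4.24, 4.92, 4.71 and 3.46 CPM in ZIP, 11.6-fold apart (adjusted p = 1.56e-17 by edgeR). Brsk2, a kinase of neuronal polarity that is also made in islets, was at 7.80, 8.52, 8.36 and 7.73 CPM in OE and 1.02, 1.06, 1.27 and 1.08 CPM in ZIP. All OE libraries lay far above ZIP. The Brsk2 message has a site of 8 bases and another of 7. Rest, the repressor of neuronal genes that mature β cells keep low, was at 1.33 ± 0.395 CPM in OE and 0.316 ± 0.0471 CPM in ZIP, 4.17-fold higher at a low level. Perp, an effector of p53 and a desmosome component, was 2.22-fold higher at 14.3 ± 0.442 CPM against 6.45 ± 0.717 CPM. Neither the Perp nor the Gpx1 3′ UTR holds a site of 7 or 8 bases. With cytokines, all 10 genes were called again with the same sign.

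**Figure D2:**
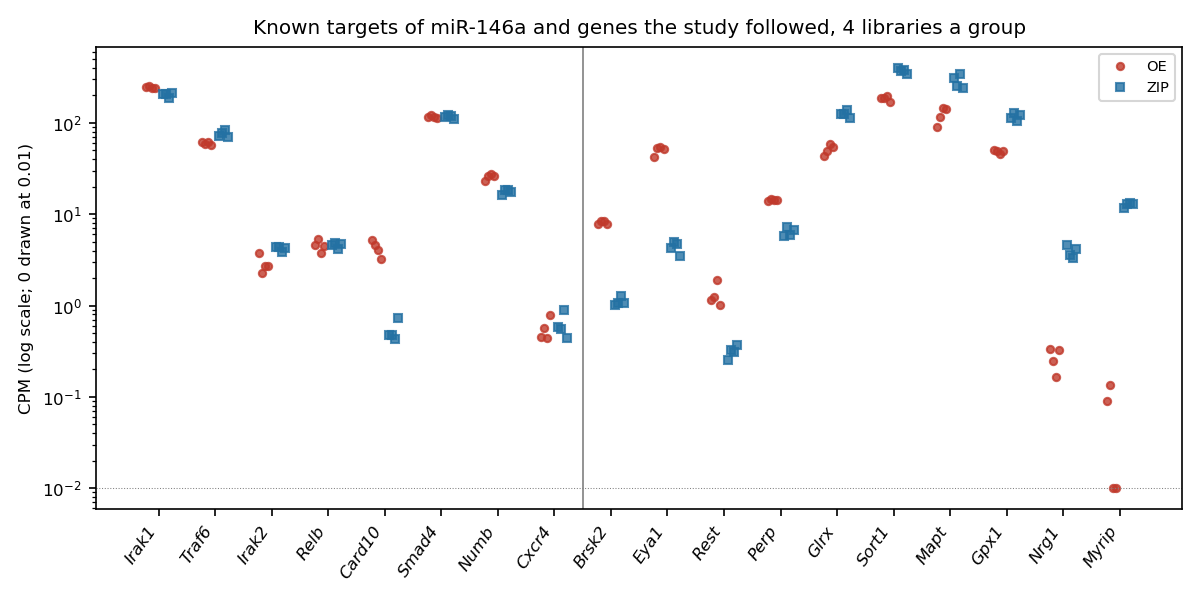
Levels in CPM on a log axis for 8 known targets of miR-146a (left of the line) and 10 genes the study followed (right), with 1 point for each of 4 OE and 4 ZIP libraries and a level of 0 drawn at 0.01. Of the targets, Card10 alone is separated by more than 1.5-fold, while all 10 followed genes are.

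Across the transcriptome, messages with a site for the microRNA had nearly the same median as those without. Of the genes tested, 15539 (87.8%) matched an annotated 3′ UTR, and 11697 of these had a mean of at least 1 CPM, of which 21.2% held a site of 7 or 8 bases. The 2483 genes with such a site had a median log2 fold change of −0.02 and the 9214 without one a median of 0.02. Among the 544 genes with a site of 8 bases the median was −0.02, with 8.82% called higher and 16.9% called lower, beside 10.1% and 15.3% of all 11697. Site-bearing UTRs are long, with a median of 2573 bases against 1000 bases. Among UTRs in the top tercile of length the median was −0.02 for 1628 genes with a site and −0.02 for 2270 without. At a mean of at least 10 CPM these were −0.020 and −0.003. In the middle tercile the medians at 1 CPM were −0.01 with a site and 0.02 without, and in the shortest 0.01 and 0.05. Whether UTR length accounts for the difference was not tested.

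The largest rises in OE were mainly genes of epithelia. Epcam, the epithelial cell adhesion molecule, was at 119, 131, 121 and 128 CPM in OE and 0, 0.0729, 0.0620 and 0.0672 CPM in ZIP, so ZIP had at most 3 reads a library and OE was at least 1206-fold higher. Esrp1, the epithelial splicing regulator, was at 108, 103, 97.5 and 83.8 CPM in OE and at most 0.0366 CPM in ZIP, at least 949-fold higher. For the simple-epithelium keratin Krt19 the OE libraries had 12.4, 17.4, 16.2 and 17.4 CPM and ZIP none, at least 153-fold. Others of the 10 were the anchoring filament protein gene Lad1 (at least 465-fold), the epithelial clathrin adaptor Ap1m2 (at least 239-fold) and the protease inhibitor Spint1 (at least 262-fold). The remaining ones were the receptor tyrosine kinase Ret, the islet hormone Ppy, the Wnt antagonist Dkk2 and the lipid receptor Gpr119. Ret was at 141, 109, 122 and 95.6 CPM in OE and 0.146, 0.0365, 0.124 and 0.0672 CPM in ZIP, 1190.2-fold apart.

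Membership among the 10 largest falls was more mixed. Trf, the iron carrier transferrin, was at 0, 0, 0.0828 and 0 CPM in OE and 15.3, 14.8, 15.5 and 14.0 CPM in ZIP, at least 169-fold lower. After Myrip came the γ-protocadherin Pcdhgb7, an adhesion gene that shares exons with its cluster so that its count is uncertain, at 0.518 ± 0.207 CPM in OE and 104 ± 9.32 CPM in ZIP (SD, n = 4). Kcnj12, an inward rectifier potassium channel, was at 0.423, 0.653, 0.635 and 1.34 CPM in OE and 93.1, 84.2, 97.2 and 57.9 CPM in ZIP, 110.3-fold lower. Amotl1, an angiomotin that binds YAP at junctions, fell 63.5-fold and Cald1, the actin regulator caldesmon, 60.6-fold. Scara3, a scavenger receptor, was at least 59.2-fold lower. The zinc finger gene Zfp521 was 83.3-fold, the calcium-binding copine Cpne4 59.4-fold and Wscd1 104-fold lower.

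**Figure D3:**
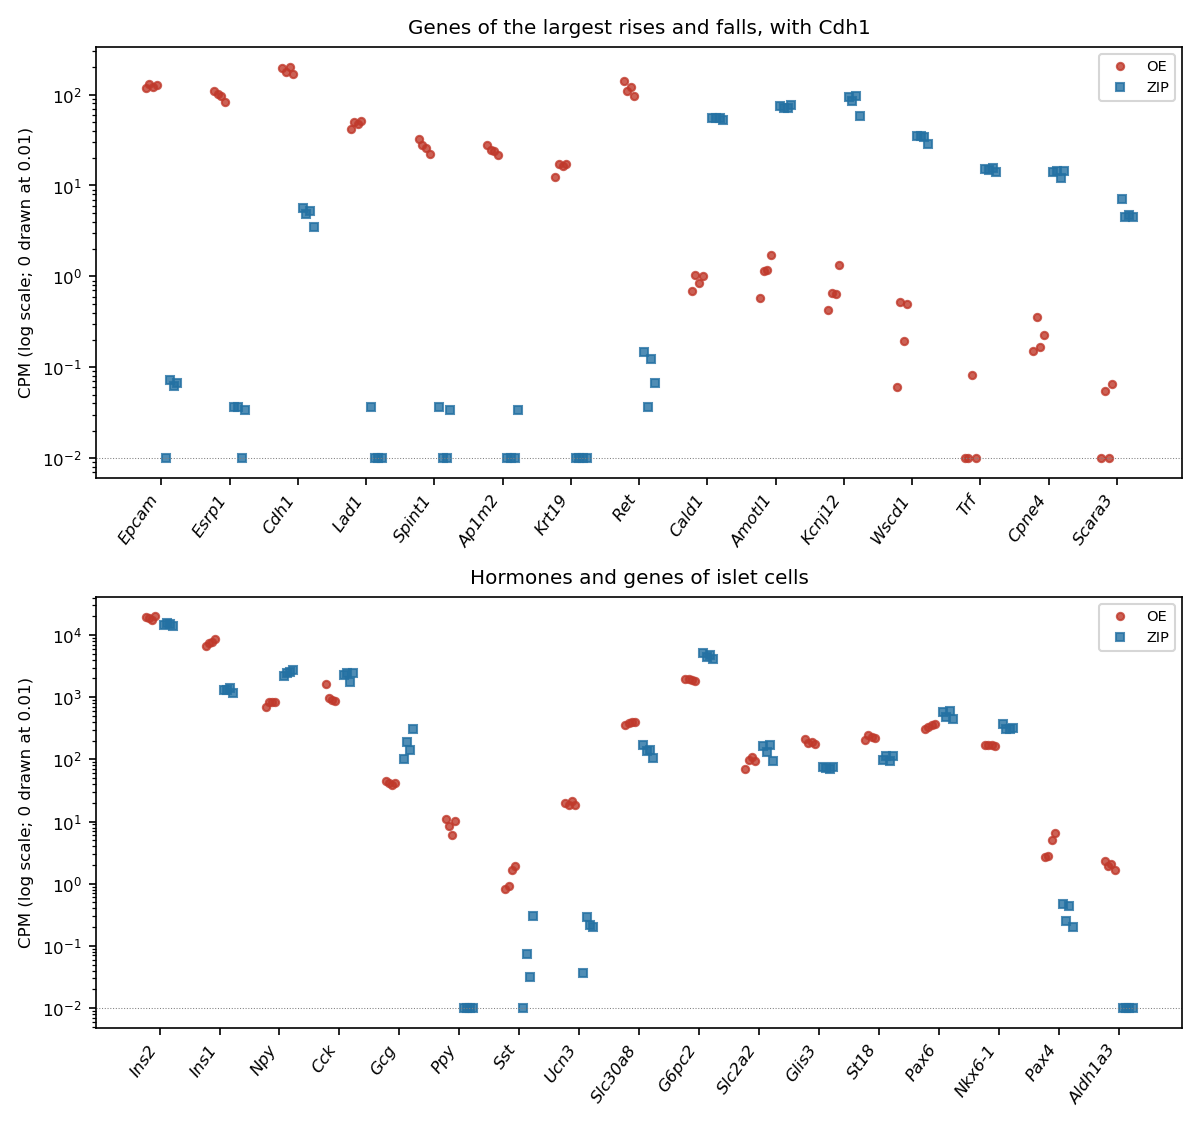
Levels in CPM on a log axis, with 1 point for each of 4 OE and 4 ZIP libraries and a level of 0 drawn at 0.01. Top, 14 genes of the largest rises and falls and Cdh1. Bottom, hormones and other islet genes, where Ins1 is higher and G6pc2 lower in OE while Ins2 differs by less than 1.5-fold.

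Most genes of the epithelial list were higher in OE. Of 36 genes of epithelial surface and polarity, 28 were called higher and 1 lower, with a median log2 fold change of 3.49 beside −0.00021 for all genes. The list was chosen with earlier results of these data known, so its count is a description. It holds Epcam, Esrp1, Krt19, Lad1, Ap1m2 and Spint1, which are among the largest rises above. Cdh1, E-cadherin of the adherens junction, was at 195, 179.5, 203 and 167 CPM in OE and 5.60, 4.89, 5.24 and 3.46 CPM in ZIP. ZIP thus kept a low level of Cdh1, 38.8-fold below OE (log2 fold change 5.28 ± 0.17, adjusted p = 1.24e-17 by edgeR). The single fall was Ovol2, a zinc finger factor that maintains epithelia, at 9.40, 9.93, 8.39 and 8.65 CPM in OE and 15.4, 16.4, 14.4 and 18.8 CPM in ZIP. Of the 8 duct markers, which are epithelial too, 5 were called higher and 0 lower, but Krt7 and Krt19 among them are on both lists. The part of duct markers in the result was not tested. The mesenchymal list was split, with 3 of 24 genes higher (12.5%) and 7 lower (29.2%), beside 10.5% and 15% of all genes. Zeb1, a repressor of Cdh1, was lower in OE at 23.4, 25.5, 27.6 and 29.7 CPM against 74.6, 76.9, 81.1 and 70.1 CPM, 2.85-fold. Snai2, another factor of that kind, was 1.99-fold higher, and the growth factor Tgfb1 was 4.76-fold higher at 37.4 ± 3.82 CPM against 7.84 ± 0.693 CPM. Some of the mesenchymal falls rest on ZIP replicate 1. Fibronectin, Fn1, was at 0.453, 0.354, 0.303 and 0.295 CPM in OE and 11.6, 3.17, 3.87 and 3.86 CPM in ZIP, below ZIP in every library. Mmp2, a matrix metalloproteinase, was at 4.06, 0, 0 and 0.0336 CPM in ZIP replicates 1 to 4 and was called through that first library, since without it the log2 fold change was −0.43 (adjusted p = 0.938 by edgeR). Its call was also lost without any 1 OE library (adjusted p between 0.0523 and 0.0589). Vimentin, Vim, was likewise at 4.90 CPM in ZIP replicate 1 and at most 0.109 CPM in the others of ZIP, and was not called. Without ZIP replicate 1 the mesenchymal list had 4 higher and 4 lower (16.7% each), the latter near the 15% of all genes. The epithelial list still had 28 and 1 without that library.

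Hormone genes moved in both directions. Of 11 islet hormones, 5 were called higher and 3 lower in OE. Ins1, the rodent-specific insulin gene, was at 6737, 7547, 7700.4 and 8709 CPM in OE and 1307, 1309, 1429 and 1176 CPM in ZIP, 5.88-fold higher (log2 fold change 2.56 ± 0.14, adjusted p = 2.57e-13 by edgeR). Ins2, the ancestral insulin gene, was at 18879 ± 938 CPM in OE and 14964 ± 724 CPM in ZIP (SD, n = 4), also without overlap but 1.26-fold and so not called. Because these paralogs are much alike, reads may have been divided between them. Glucagon, Gcg, was lower in OE at 44.2, 42.2, 38.2 and 41.1 CPM against 101, 191, 141 and 304 CPM, with the widest spread among ZIP libraries. Neuropeptide Y, Npy, was 3.11-fold lower at 802 ± 69.1 CPM, and cholecystokinin, Cck, 2.05-fold lower at 1089 ± 345 CPM. Pancreatic polypeptide, Ppy, had no read in ZIP and 10.9, 8.52, 6.04 and 10.1 CPM in OE. Somatostatin, Sst, was at 1.34 ± 0.552 CPM in OE and 0.102 ± 0.137 CPM in ZIP, a rise at a very low level.

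Genes of the mature β cell were called in both directions as well. Urocortin 3, Ucn3, a peptide of mature β cells, was at 20.2, 18.6, 21.2 and 18.3 CPM in OE and 0.0366, 0.292, 0.217 and 0.202 CPM in ZIP, 102-fold higher. The granule zinc transporter Slc30a8 was 2.73-fold higher, at 382 ± 22.9 CPM against 139.9 ± 28.0 CPM. In contrast the islet glucose-6-phosphatase G6pc2 was 2.45-fold lower, at 1895 ± 65.7 CPM against 4641 ± 422 CPM. The glucose transporter Slc2a2 overlapped between the lines, at 68.8, 99.2, 109.6 and 93.1 CPM in OE and 167, 129.8, 171 and 93.9 CPM in ZIP, and its call (adjusted p = 0.0428 by edgeR) was lost without any 1 of OE replicates 1, 2 and 4 or ZIP replicates 1, 2 and 3 (log2 fold changes between −0.48 and −0.63) and with the replicate block (−0.54). Of 22 β cell transcription factors, 6 were higher and 2 lower, but the lower count was 4 without OE replicate 3 or ZIP replicate 4 and 1 without OE replicate 1, ZIP replicate 1 or ZIP replicate 3. Glis3 and St18, zinc finger factors of islet cells, were 2.60-fold and 2.15-fold higher, and Pax4, an islet progenitor factor, 12.3-fold at 4.27 ± 1.83 CPM. The falls were Nkx6-1, at 168, 168, 168 and 164 CPM in OE and 370.2, 309, 311 and 321 CPM in ZIP, and Pax6, at 342 ± 30.5 and 527 ± 72.0 CPM. Pax6 was just past the fold limit and under it without OE replicate 1, ZIP replicate 1 or ZIP replicate 3 (log2 fold changes between −0.55 and −0.58). Of 9 listed factors of other islet fates and progenitors, 5 were higher and 2 lower, or 4 and 1 without ZIP replicates 1 and 4. Aldh1a3, a retinoid enzyme associated with dedifferentiated β cells, was at 2.33, 1.90, 2.10 and 1.64 CPM in OE and had no read in ZIP, at least 19.3-fold. The α cell factor Irx2 was at least 27.7-fold higher. Prox1, a factor of pancreas development, was 2.33-fold lower, and hormone-list counts were unchanged without ZIP replicates 1 and 4.

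**Figure D4:**
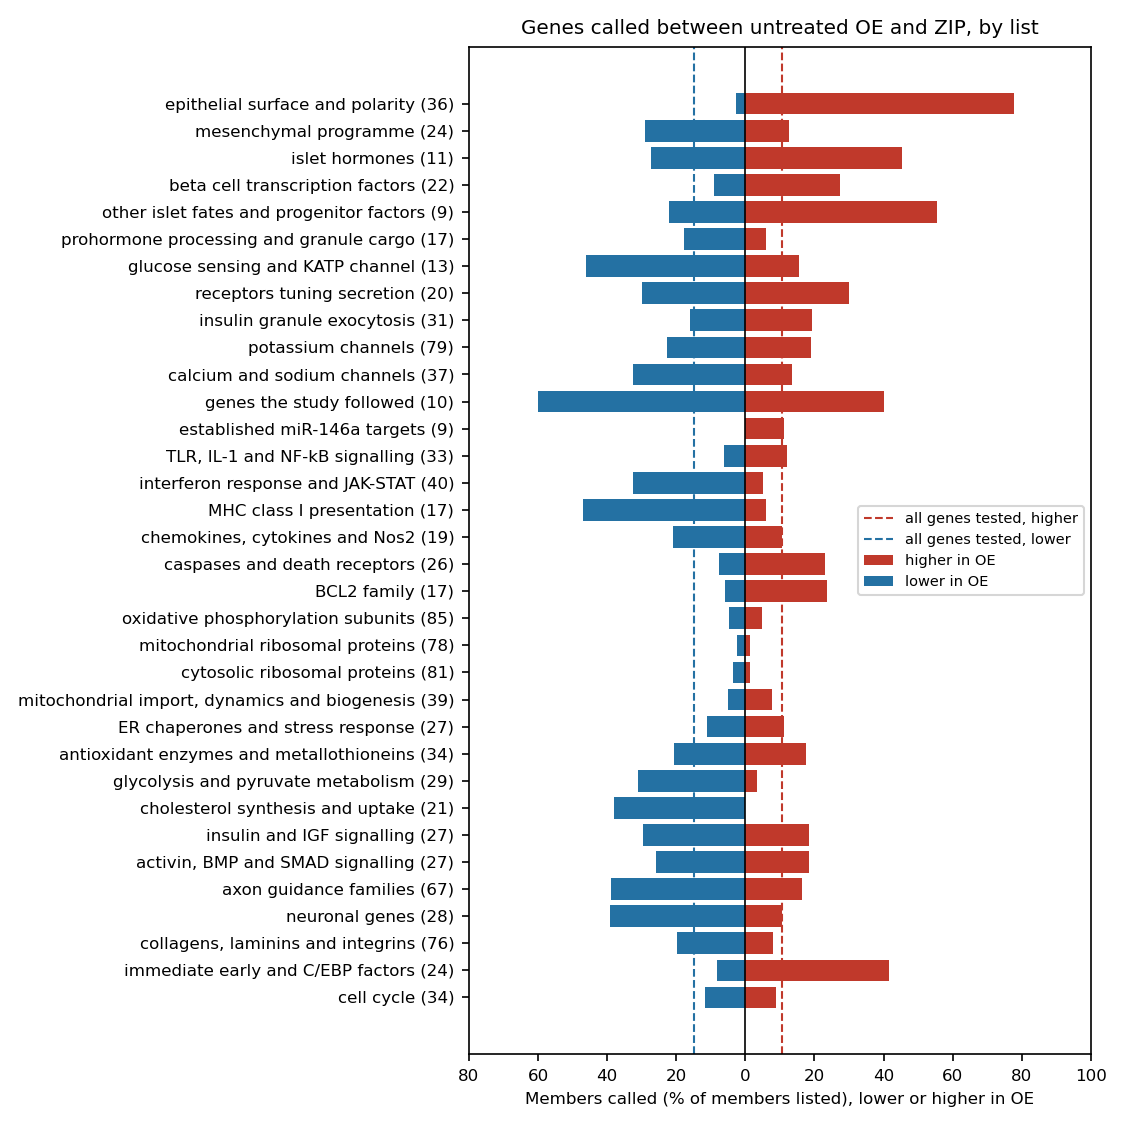
Share of each gene list called lower (left) or higher (right) in OE than in ZIP, as percent of members listed (number in brackets), with dashed lines at the share of all genes tested, 15% lower and 10.5% higher. The lists were chosen with earlier results of these data known. The epithelial list reaches farthest to the right, with 28 of 36 members, while the lists of ribosomal proteins and oxidative phosphorylation lie inside both lines.

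Genes of the machinery of secretion were called in both directions. Of 31 exocytosis genes, 6 were higher and 5 lower, and of 17 genes of prohormone processing and granule cargo, 1 and 3, or 2 and 3 without ZIP replicate 4. Over all 8 libraries 35.5% and 23.5% of these lists were called, beside 25.5% of all genes. Pcsk2, the prohormone convertase needed for glucagon and insulin processing, was at 1205, 1225, 1228 and 1188 CPM in OE and 2397, 2535, 2304 and 2566 CPM in ZIP, 2.02-fold lower. The granule membrane proteins Ptprn2 and Sv2a were 2.26-fold and 2.54-fold lower. Complexin 1, Cplx1, a clamp on SNARE complexes, was at 0.491 ± 0.133 CPM in OE and 9.11 ± 1.21 CPM in ZIP, and melanophilin, Mlph, which like Myrip connects granules to myosin, was 3.55-fold lower. On the other side, the calcium sensor Doc2b was 19.3-fold higher at 3.05 ± 0.845 CPM, and the vesicle SNARE Vamp8 1.93-fold higher at 57.1 ± 1.03 CPM. Of 20 receptors that tune secretion, 6 were higher and 6 lower (60% called). Gpr119 was at 6.56, 4.49, 5.30 and 5.08 CPM in OE with no read in ZIP, and the somatostatin receptor Sstr1 at least 95.6-fold higher. The prolactin receptor Prlr was 1.55-fold higher, at 743, 798, 799 and 837 CPM against 513, 493, 390.4 and 653 CPM, a call that was lost without ZIP replicate 3 (adjusted p = 0.0648 by edgeR). The dopamine receptor Drd2, by contrast, was at 0.574, 0.735, 0.524 and 1.70 CPM in OE and 27.4, 28.4, 27.4 and 33.7 CPM in ZIP, 33.7-fold lower, and the receptor Vipr1 for vasoactive intestinal peptide 2.40-fold lower.

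Several ion channel genes differed by over 10-fold. Of 79 potassium channel genes, 15 were higher and 18 lower in OE (41.8% called, beside 25.5% of all genes), and 35 were under 1 CPM in both lines. Kcnk9, a two-pore leak channel, was at 332, 263, 276 and 260.2 CPM in OE and 1.72, 1.42, 2.29 and 2.02 CPM in ZIP, 150.2-fold higher (adjusted p = 3.85e-16 by edgeR). Kcnk1 and Kcnk6, of the same family, were 10.1-fold and at least 82.8-fold higher. Beside Kcnj12, the voltage-gated channel Kcnh7 was lower, at 0.178 ± 0.0597 CPM against 5.24 ± 0.767 CPM. Of 37 calcium and sodium channel genes, 5 were higher and 12 lower (45.9% called). The neonatal sodium channel Scn3a was at 15.4, 9.82, 13.4 and 10.8 CPM in OE and 0.220, 0.255, 0.155 and 0.168 CPM in ZIP, and the calcium channel subunit Cacnb1 was 13.1-fold higher. The P/Q-type channel Cacna1a was 7.64-fold lower, at 2.87 ± 0.202 CPM against 21.9 ± 1.61 CPM.

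Guidance and neuronal genes were mostly lower in OE among those called. Of 67 genes of the axon guidance families, 26 were lower and 11 higher (median −0.53 on the log2 scale), and of 28 neuronal genes, 11 and 3 (median −0.52), beside 15% lower and 10.5% higher of all genes. The guidance ligand Slit1 was at 0.876, 2.18, 1.49 and 2.13 CPM in OE and 6.40, 7.40, 10.3 and 12.8 CPM in ZIP, 5.54-fold lower. The neurofilament Nefl was at 55.8, 91.8, 103 and 108 CPM in OE and 407, 407, 416 and 411 CPM in ZIP, and neurexin 2, Nrxn2, 7.59-fold lower. Semaphorin 5A, Sema5a, was lower at 0.565 ± 0.229 CPM against 6.95 ± 4.20 CPM, with its highest level, 13.2 CPM, in ZIP replicate 1. Rises in these lists were the netrin receptor Unc5d, 4.62-fold, the receptor Epha1, at least 18.3-fold, and the RNA-binding protein Elavl3, 2.30-fold. Of 76 collagens, laminins and integrins, 15 were lower and 6 higher. Without ZIP replicates 1 and 4 the counts were 12 (15.8%) and 9 (11.8%), near the 15% and 10.5% of all genes. The basement membrane chain Lama5 was at 2.66, 3.40, 3.09 and 3.80 CPM in OE and 62.8, 61.0, 53.2 and 60.0 CPM in ZIP, and Lama1 was 26.8-fold lower. The leukocyte integrin Itgal was 33.0-fold and the collagen Col27a1 3.01-fold higher.

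Growth factor pathways differed at ligand and receptor. Of 27 insulin and IGF pathway genes, 5 were higher and 8 lower (48.1% called, beside 25.5% of all genes). Igf1r, the IGF1 receptor, was at 455, 447, 446 and 372 CPM in OE and 15.6, 19.1, 13.4 and 18.7 CPM in ZIP, 25.8-fold higher (log2 fold change 4.69 ± 0.23, adjusted p = 1.61e-14 by edgeR). Its ligand Igf2, an imprinted fetal growth factor, ran the other way at 4185, 3755, 4031 and 4196 CPM in OE and 13239.9, 11396, 12181 and 11262 CPM in ZIP. The binding protein Igfbp4 was 125-fold higher and the kinase Akt2 2.44-fold lower. Of 27 genes of activin, BMP and SMAD signalling, 5 were higher and 7 lower (44.4% called). The activin subunit Inhba was at 91.3, 65.5, 61.6 and 70.1 CPM in OE and 7.10, 6.05, 5.11 and 9.98 CPM in ZIP, and follistatin, Fst, which binds activin, at 13.7, 18.3, 10.7 and 12.2 CPM in OE and 0.549, 0, 0 and 0 CPM in ZIP. The co-receptor Tgfbr3 was 37.9-fold lower. Eef1a2, the elongation factor of neurons, muscle and islets, was at 42.7, 56.6, 58.3 and 62.9 CPM in OE and 0.146, 0.365, 0.651 and 1.38 CPM in ZIP, 84.4-fold higher. The common form Eef1a1 differed by 1.13-fold, at 4609 ± 209 CPM against 4087 ± 92.6 CPM, and its count can be blurred by pseudogenes. Among 20 genes of the microRNA machinery 1 was higher and 1 lower, and these were the let-7 antagonists Lin28a, at 3.29 ± 0.886 CPM against 0.904 ± 0.158 CPM, and Lin28b, at 0.360 ± 0.0857 CPM against 19.7 ± 3.10 CPM. Without OE replicate 1 or OE replicate 3 the list had 2 lower.

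Most genes of the inflammatory receptor pathways were not called, while the count of interferon-response genes called lower in OE rested in large part on ZIP replicate 4. Of 33 genes of Toll-like, interleukin-1 and NF-κB signalling, 4 were higher and 2 lower (18.2% called, beside 25.5% of all genes). The endotoxin receptor Tlr4 was the widest, at 12.8, 13.6, 13.7 and 12.6 CPM in OE and 0.476, 0, 0.0620 and 0 CPM in ZIP. Of 40 interferon and JAK-STAT genes, 13 were lower and 2 higher. Without ZIP replicate 4 the counts were 7 and 2, and 7 of 40 is 17.5%, near the 15% of all genes called lower. The higher count was 1 without any 1 of OE replicates 1 and 2 or ZIP replicates 1, 2 and 3. Of 17 genes of MHC class I presentation, 8 were lower, or 6 without ZIP replicate 4, and 1 was higher with or without it. Of 19 chemokine and cytokine genes, 4 were lower, or 0 without ZIP replicate 4, and 2 were higher with or without it. Cxcl10, an interferon-induced chemokine, was at 0.332, 0.680, 0.800 and 1.87 CPM in OE and 0.0732, 3.21, 3.53 and 31.1 CPM in ZIP, where the groups overlap and the adjusted p of 0.00382 by edgeR becomes 0.200 without ZIP replicate 4. The same held for Gbp2 and Gbp3, with adjusted p values of 0.265 and 0.0669. Psmb9, an immunoproteasome subunit, was at 0.272, 0.490, 0.552 and 0.557 CPM in OE and 2.01, 2.70, 2.51 and 4.37 CPM in ZIP, below ZIP in every library. The MHC light chain B2m was likewise lower in every OE library, at 10.8, 13.5, 12.6 and 13.9 CPM against 21.9, 34.3, 28.9 and 96.5 CPM, and the ubiquitin-like Isg15 was 8.47-fold lower.

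More cell death genes were called higher than lower in OE. Of 26 caspases and death receptor genes, 6 were higher and 2 lower, and of 17 genes on the BCL2 family list, 4 and 1, beside 10.5% and 15% of all genes. The 4 include Perp, the p53 effector named above, which the list holds although it is not a member of that family. The lower count of the BCL2 family was 0 without any 1 of OE replicates 1, 2 and 3 or ZIP replicate 4. Casp8, the initiator of death receptor signalling, was at 29.3, 24.2, 26.7 and 28.0 CPM in OE and 4.72, 6.31, 7.10 and 6.42 CPM in ZIP, 4.39-fold higher (adjusted p = 5.25e-15 by edgeR). Birc2, an inhibitor of apoptosis, and the survival factor Mcl1 were 2.14-fold and 1.54-fold higher.

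Most mitochondrial and ribosomal genes were not called. Of 85 subunits of oxidative phosphorylation, 4 were higher and 4 lower (median −0.06), of 78 mitochondrial ribosomal proteins 1 and 2, and of 81 cytosolic ones 1 and 3, each share under that of all genes. Without ZIP replicate 4 the mitochondrial ribosomal list had 1 and 1 and the cytosolic list 2 and 2, while without ZIP replicate 3 the mitochondrial list had 1 lower and without OE replicate 2 the cytosolic list 0 higher. The exceptions included the muscle-type subunit Cox6a2, 6.73-fold lower at 6.97 ± 0.529 CPM. Of 39 genes of mitochondrial import, dynamics and biogenesis, 3 were higher and 2 lower. Dnm1l, the fission GTPase Drp1, was at 158, 145, 153 and 149.7 CPM in OE and 60.9, 64.1, 64.7 and 63.3 CPM in ZIP, 2.39-fold higher (log2 fold change 1.26 ± 0.06, adjusted p = 1.69e-14 by edgeR). The fusion GTPase Mfn2 ran the other way at 47.2, 41.1, 43.5 and 38.5 CPM against 101, 89.3, 105 and 77.3 CPM, and the uncoupling protein Ucp2 was 4.27-fold higher. The import genes Tomm20 and Timm23 encode proteins that the study stained as markers of mitochondrial function. Their RNA was at 98.0 ± 2.93 and 52.2 ± 2.53 CPM in OE and 116 ± 6.76 and 53.2 ± 3.46 CPM in ZIP, with neither called. By immunostaining the study reported less TIM23 protein in OE than in ZIP and scrambled control cells, with or without cytokines. Protein was not measured in these libraries. Of 34 antioxidant and metallothionein genes, 6 were higher and 7 lower (38.2% called, beside 25.5% of all genes). Catalase, Cat, was at 0.121, 0.0816, 0.248 and 0.458 CPM in OE and 6.15, 4.89, 7.22 and 5.31 CPM in ZIP, and the quinone reductase Nqo1 10.1-fold lower, while Gpx2, a glutathione peroxidase of epithelia, was 75.2-fold higher.

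Glycolysis and cholesterol genes were mostly lower in OE where called. Of 29 glycolysis and pyruvate genes, 9 were lower and 1 higher (median −0.47), and of 21 cholesterol genes, 8 and 0 (median −0.47), or 5 lower without ZIP replicate 2. Lactate dehydrogenase A, Ldha, a gene normally kept low in β cells, was at 15.4, 108, 97.9 and 130.3 CPM in OE and 280.1, 232, 433 and 246 CPM in ZIP. OE replicate 1 was far below its group, yet the other OE libraries also lay below all of ZIP. The monocarboxylate transporter Slc16a1, likewise held low in β cells, was 5.20-fold lower and hexokinase 1, Hk1, 2.52-fold higher, at 23.8, 36.4, 35.5 and 46.7 CPM against 7.90, 10.7, 16.2 and 21.5 CPM. Of 27 ER chaperone and stress genes, 3 were higher and 3 lower (22.2% called, beside 25.5% of all genes), but 5 and 1 without ZIP replicate 4, and 5 were higher without OE replicate 1. Ero1b, the disulfide oxidase of the islet ER, was at 2093, 2168, 2363 and 2255 CPM in OE and 6527, 5928, 5794 and 5671 CPM in ZIP, while the chaperone cofactor Sdf2l1 was 2.35-fold higher and the ER stress factor Manf 1.55-fold lower. Manf was not called without ZIP replicate 4, at a log2 fold change of −0.50. Of 24 immediate early and C/EBP factors, 10 were higher and 2 lower, or 1 lower without OE replicate 1. Egr1 was at 50.8, 49.2, 60.4 and 133 CPM in OE and 13.4, 5.76, 6.82 and 6.18 CPM in ZIP, and Fos at 10.9, 11.8, 12.6 and 38.1 CPM in OE and 5.56, 6.02, 5.21 and 11.0 CPM in ZIP, with both highest in OE replicate 4.

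Neighbouring genes moved together in a few places of the genome. The genome was cut into stretches of 10 Mb, and those with 10 or more genes of at least 10 CPM on average were kept. The median log2 fold change reached 0.3 in size with at least 75% of genes on that side in 10 of 244 windows. The largest stretch was on chromosome 9 from 80 to 120 Mb (GRCm38), where the medians of 4 adjoining windows lay between −0.69 and −0.83. From 100 to 110 Mb, 61 of 81 genes were called lower and 3 higher. Gpx1, Trf, Cpne4 and Manf lie in that window, and the fold changes of Trf and Cpne4 exceeded its median many times over. The next window of chromosome 9, from 120 to 130 Mb, had a median of −0.48 but only 73.3% of genes on that side. It holds Myrip and Cck and is not among the 10. On chromosome 13 from 50 to 60 Mb, 41 of 56 genes were lower (median −0.90), and Nfil3 lies there. On chromosome 16 from 10 to 20 Mb, 31 of 64 were higher (median 0.52). Dnm1l, Sdf2l1, Snai2 and Mcm4 lie in that window. Mfn2 lies in another of the 10, on chromosome 4 from 140 to 150 Mb (median −0.35). Of the 10 windows that met both limits, 7 had lower medians. With genes of any level counted, those 7 held 540 genes, or 3.05% of all tested, and 266 of the 2657 genes called lower, or 10.0%. Inside them 49.3% of genes were called lower, beside 14.0% outside the 10 windows, a description only, since the windows were chosen by these fold changes. Whole chromosomes differed less, and the medians of chromosomes 2, 4, 7, 9 and 18 lay between −0.10 and −0.16 while those of all others were between 0.02 and 0.16. Whether these stretches differ in gene dosage between the clones was not tested.

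**Figure D5:**
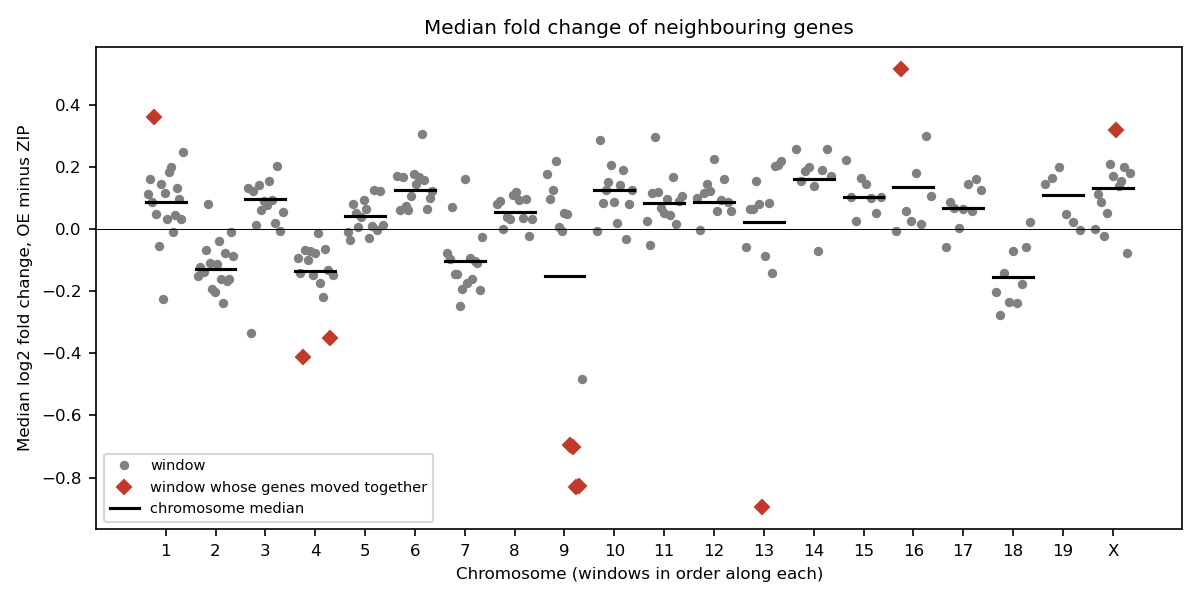
Median log2 fold change (OE minus ZIP) over genes averaging 10 CPM or above in each 10 Mb window, drawn in order within each chromosome, with diamonds for the 10 windows whose genes moved together and a bar at each chromosome's median. A run of 4 low windows lies on chromosome 9, and single ones stand out on chromosomes 13 and 16.

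The gap between the lines was also read in the cytokine-treated libraries, which are other samples of the same clones and share 1 estimate of the spread with the untreated ones. Between OE+Cy and ZIP+Cy, 4830 genes (27.3%) were called, 2423 higher and 2407 lower. Of the 4515 genes called without cytokines, 3092 (68.5%) were called with the same sign and 60 with the opposite sign. A test of the change in the gap found 3647 genes (20.6%) at an adjusted p under 0.05, of which 1094 were among the 4515. The epithelial gap was kept, with 28 of 29 called members called again in the same direction. Of the 15 interferon and JAK-STAT genes called, 2 were called again with the same sign. For Cxcl10 the log2 fold change was −3.41 without and 0.65 with cytokines (adjusted p of the difference 0.0121 by edgeR), and for Psmb9 it was −2.62 and 0.19 (adjusted p 1.30e-05). Prlr turned from 0.63 to −1.24 (adjusted p 1.77e-04), and Sdf2l1 from 1.23 to −0.49 (adjusted p 2.62e-05). Casp8 kept a smaller gap, from 2.13 to 1.41 (adjusted p 4.41e-04), and Irak2 went from −0.56 to 1.20 (adjusted p 3.85e-05).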

How the data were processed

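Messenger RNA libraries were sequenced from MIN6 lines, 24 in all, and the 4 untreated OE and 4 untreated ZIP libraries were compared here. According to the study's methods, the authors aligned reads to mm10 with STAR, quantified them against RefSeq Transcripts in Partek Flow, and removed genes with few reads. The submitters' processing notes give STAR 2.7.8a and Partek 11.0.24.0204. The values used are estimated counts, deposited by the authors before any normalization. They were rounded, since 30.3% were not whole. How reads were split between overlapping genes or strands is not given in the sources used here. A table of normalized signal deposited by the authors and their own comparisons were not used.

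All 17696 listed genes entered edgeR 4.0.16 (R 4.3.3) with TMM scaling and 6 group means over 24 libraries (glmQLFit, glmQLFTest). Standard errors are the log2 fold change divided by the square root of F. Calls needed a 1.5-fold change or more and a Benjamini-Hochberg adjusted p under 0.05. Where a group had at most 3 reads in every library, folds are lower bounds against 3 reads. Bounds cover counting error only. The fits were tested on simulated data. Gene lists, marker lists and the comparison were chosen with earlier results of these data known. Genes named are the known targets, the followed genes, the 10 largest rises and falls (adjusted p under 0.05, at least 5 CPM, no overlap), up to 3 called genes a direction of each list, and a few reference genes. Some genes that this rule names are not reported here. Col1a1, Krt7, Spp1 and Sox9 come from the marker lists.

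Samples with the same replicate number deviated together from their group means (r = 0.413, 0.200, 0.310 and 0.266 for numbers 1 to 4 over 12670 genes), so the number was used as a block in an alternative fit. Other alternatives were DESeq2 1.42.0, its size factors, a filter on low counts (filterByExpr), the 8 libraries alone, unadjusted p-values, a 2-fold limit, and leaving out libraries. Leaving out ZIP replicates 1 and 4 together was chosen after seeing the data.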

Additional observations from a re-analysis of the deposited data

Results flagged for a closer look

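In 41 of 280 sets of 4 libraries, for the 140 genes named, 1 library lay far from the others of its group. Chance alone flags about 1 in 20 such sets, and these came to 14.6%. OE replicate 1 lay apart with Vim at 0.756, Npy at 699, Cck at 1601, Cacnb1 at 25.1 and Unc5d at 32.0 CPM. Next, OE replicate 2 lay apart with Lama1 at 0.762 and Akt2 at 93.6 CPM. In OE replicate 3 the levels apart from the group were Trf at 0.0828 and Mmp2 at 0.0276 CPM. For OE replicate 4 they were Nkx6-1 at 164, Igf1r at 372, Isg15 at 0.262, Egr1 at 133 and Fos at 38.1 CPM. ZIP replicate 1 lay apart with Lad1 at 0.0366, Epcam at 0, Scara3 at 7.14, Vim at 4.90, Mmp2 at 4.06, Fn1 at 11.6, Fst at 0.549, Tlr4 at 0.476, Egr1 at 13.4 and Ccnd2 at 3363 CPM. In ZIP replicate 2 the levels apart were Sstr1 at 0.0729 and Kcnk6 at 0.0365 CPM. For ZIP replicate 3 they were Esrp1 at 0, Cplx1 at 10.9 and Nnat at 389 CPM. ZIP replicate 4 lay apart with Card10 at 0.739, Ap1m2 at 0.0336, Irx2 at 0.0336, Drd2 at 33.7, Gbp2 at 37.6, Gbp3 at 31.5, Isg15 at 3.29, Cxcl10 at 31.1, B2m at 96.5, Fos at 11.0, Plagl1 at 121 and Mest at 4.74 CPM. Several of these are genes near 0 in the group, where 1 read sets a library apart. The values of Fn1, Vim and Mmp2 in ZIP replicate 1 and of Gbp2, Gbp3, Cxcl10, Isg15 and B2m in ZIP replicate 4 belong to the connective tissue and interferon-response genes that were high in those libraries, and what brought that RNA there was not tested.

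The gap between OE and ZIP differed with cytokines from that without them for 32 of the genes named (adjusted p under 0.05 by edgeR for the interaction). The log2 gap with cytokines minus that without was above 0 for 17 genes, at 4.45 for Gbp2, 4.19 for Gbp3, 4.05 for Cxcl10, 3.95 for Isg15, 2.82 for Psmb9, 1.76 for Irak2, 1.69 for Nrg1, 1.69 for Cat, 1.67 for B2m, 1.24 for Lin28b, 0.82 for Cdh1, 0.73 for Lama5, 0.59 for Mlph, 0.49 for Cald1, 0.39 for Mfn2, 0.39 for Perp and 0.29 for Zeb1. It was below 0 for 15 genes, at −1.87 for Prlr, −1.72 for Sdf2l1, −1.59 for Ucn3, −1.40 for Rrm2, −1.23 for Manf, −0.96 for Npy, −0.86 for Cox6a2, −0.72 for Casp8, −0.68 for G6pc2, −0.58 for Ovol2, −0.52 for Mcm4, −0.45 for Gpx1, −0.36 for Mcl1, −0.34 for St18 and −0.29 for Glis3. Gbp2, Gbp3, Cxcl10, Isg15, Psmb9 and B2m were called lower in OE without cytokines, and with cytokines Isg15 was called higher and the others were not called.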

How the results depend on the processing

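Of 140 genes named, 131 kept their direction and their side of the threshold in each of the 14 other fits. Those that did not were Irak2, Mmp2, Slc2a2, Pax6, Prlr, Gbp2, Gbp3, Cxcl10 and Manf, whose values stand with them in the report. Mmp2 alone turned its direction, to a log2 fold change of 1.51 without ZIP replicates 1 and 4. DESeq2 lost the calls of Mmp2 (−6.85) and Slc2a2 (−0.60). The block on replicate number, which the pairing of libraries calls for, lost that of Slc2a2 (−0.54) and no other named gene, and gave 4583 genes called in place of 4515 and 4603 in place of 3647 for the difference with cytokines. A fold limit of 2 left 2980 genes, 1230 higher and 1750 lower. DESeq2 called 4322 genes, the fit with its size factors 4516, that of the 8 libraries alone 4380, and unadjusted p-values 4839. Leaving out 1 library at a time gave 4314 to 4512 genes called, 1786 to 1884 higher and 2497 to 2632 lower, 4581 to 4803 called with cytokines (2296 to 2393 higher and 2255 to 2423 lower), and 2929 to 4119 for the difference.

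The median log2 fold change of genes with a site lay between −0.025 and −0.010 without 1 library, and was −0.0087 at a mean of at least 10 CPM, where that of genes without a site was 0.040; without 1 library the latter lay between 0.019 and 0.031. At a mean of at least 1 CPM the window on chromosome 9 from 100 to 110 Mb had a median of −0.91 and that on chromosome 16 from 10 to 20 Mb one of 0.60. The cause of these shifts was not tested. Genes of a few reads are limited by depth: 3 reads come to 0.103 CPM on average over the ZIP libraries. The main fit had no filter on level, so genes below such levels could still be called, and those calls rest on few reads. With 1 clone a line, no alternative separates clone, vector and microRNA.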

Other observations

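Most cell cycle genes were not called. Of 34 such genes, 3 were called higher and 4 lower in OE, beside 10.5% and 15% of all genes tested. The higher count was 5 without ZIP replicate 3 and 6 (17.6%) without ZIP replicate 4. Cyclin D2, Ccnd2, which drives β cell proliferation, was at 969, 645, 841 and 749 CPM in OE and 3363, 2833, 2781 and 2813 CPM in ZIP, 3.68-fold lower (adjusted p = 1.46e-10 by edgeR). The cell cycle inhibitor locus Cdkn2a was also lower, 2.04-fold, at 37.8 ± 1.81 CPM against 77.1 ± 3.69 CPM (SD, n = 4). The replicative helicase subunit Mcm4 was 2.55-fold higher at 238 ± 9.42 CPM, and the ribonucleotide reductase subunit Rrm2 1.67-fold higher.

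Of 23 imprinted genes, 2 were higher and 5 lower (30.4% called, beside 25.5% of all genes). Mest was at 0.423, 0.381, 0.386 and 0.426 CPM in OE and 2.60, 2.92, 2.70 and 4.74 CPM in ZIP, and neuronatin, Nnat, which acts in β cell secretion, was 2.62-fold lower at 96.9 ± 28.2 CPM. Dlk1, a Notch-like ligand, was 2.93-fold higher at 7.66 ± 2.16 CPM, and the zinc finger gene Plagl1 1.74-fold higher. Of 20 circadian clock genes, 0 were higher and 2 lower, or 5 lower without OE replicate 2. The falls over all 8 libraries were the repressors Nfil3, 2.18-fold, and Cry2, 1.67-fold. The median log2 fold change of the clock list was −0.26.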
